A study of Arabidopsis thaliana with 6 samples.

Results

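The loci described here are 10 Arabidopsis genes for lipid-transfer proteins, chosen by name with the result of the ethylene comparison already known. They are LTP1 (AT2G38540), LTP2 (AT2G38530), LTP3 (AT5G59320), LTP4 (AT5G59310), LTP5 (AT3G51600), LTP6 (AT3G08770), the membrane-anchored LTPG1 (AT1G27950), and the signalling members DIR1 (AT5G48485), AZI1 (AT4G12470) and EARLI1 (AT4G12480), out of 32833 loci in the count tables. Whole seedlings of the Columbia genotype had germinated for 3 d in darkness, either with 0.7 ppm ethylene or in air, and all of them then grew for 5 d in light without ethylene. Each pretreatment had 3 sequenced libraries (ethylene 1 to 3 and air 1 to 3), made from messenger RNA with random priming. Libraries are numbered as their count tables are labelled; in the authors' deposited comparison table the columns named for air 1 and air 3 hold each other's values, so these numbers may be exchanged. The study is titled for priming of metabolism by ethylene, so the question is which transcript levels differed after 5 d without the gas.

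Lipid-transfer proteins are small secreted proteins in which a conserved set of cysteines holds a fold with a hydrophobic cavity that can carry fatty acids and other lipids. In shoots many of them are made in the epidermis, whose outer wall carries the cuticle of cutin and wax, and LTPG1 is known for its part in delivering wax to that surface. DIR1 and AZI1 are known for long-distance signalling in systemic acquired resistance, the state of readiness that follows a local infection. EARLI1 and AZI1 carry a proline-rich stretch before the lipid-transfer domain, and LTP3 and LTP4 are known as genes induced by abscisic acid and drought.

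Among the 10 loci are pairs of neighbouring copies, so how alike their sequences are bears on every count below. LTP1 and LTP2 lie 890 bases apart on chromosome 2, LTP3 and LTP4 lie 2996 bases apart on chromosome 5 and are transcribed away from each other, and AZI1 and EARLI1 lie 4113 bases apart on chromosome 4. For each of the 10 members the annotated transcript with the most counts was searched, so the second transcript of LTP6 was left out. No stretch of 50 bases in these transcripts was found, in the same sense, in a transcript of another locus. Antisense matches were not searched, and exons of a locus on the opposite strand cover all exon bases of DIR1, as described below. The longest run shared by LTP1 and LTP2, of 40 bases, does not lie wholly in the coding parts of both and is not shown. For the other pairs, the longest shared stretches, which lie within the coding parts, are shown first (RefSeq, assembly TAIR10.1). Reads falling wholly inside any of these shared stretches could come from either copy. The stretches shown begin at coding base 259 of LTP3 and 250 of LTP4, and at coding base 385 of AZI1 and 406 of EARLI1.
LTP3 and LTP4: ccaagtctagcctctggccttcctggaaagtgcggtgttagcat
AZI1 and EARLI1: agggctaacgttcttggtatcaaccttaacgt

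AZI1 and EARLI1, which were both lower after ethylene, also resemble each other upstream of the transcript. The 250 bases before the annotated start of each gene are shown for that reason, with capitals marking the runs of at least 12 bases found in both. AZI1's window is chr4:7401952-7402201 and EARLI1's is chr4:7406995-7407244, both on the minus strand of TAIR10.1 (RefSeq).
AZI1: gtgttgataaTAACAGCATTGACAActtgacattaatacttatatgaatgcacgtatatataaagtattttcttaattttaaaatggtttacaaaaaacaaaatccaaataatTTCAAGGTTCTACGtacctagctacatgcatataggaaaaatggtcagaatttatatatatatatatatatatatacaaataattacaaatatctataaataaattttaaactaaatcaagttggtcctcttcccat
EARLI1: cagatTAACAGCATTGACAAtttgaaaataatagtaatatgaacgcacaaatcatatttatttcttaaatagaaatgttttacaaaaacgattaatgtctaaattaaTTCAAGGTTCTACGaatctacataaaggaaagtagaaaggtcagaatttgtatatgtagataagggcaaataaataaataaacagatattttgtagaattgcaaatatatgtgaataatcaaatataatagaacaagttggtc
The capitals cover 29 bases in each window, in the same order and in 2 runs, the longer one of 15 bases. Of the other 44 pairs among the 10 members, 2 pairs shared a run, and none of these runs was longer than 12 bases. Short motifs were searched in the same windows on both strands. ACGTG, the core of the abscisic acid response element, occurred at base -74 of LTP2 and base -200 of AZI1, counted from the transcript start, and 23.3% of 27425 promoters of this length hold it. CCGAC, the core of the dehydration response element, occurred at base -36 of LTP2 and in 12.3% of all promoters. None of the other members' windows held these letters, and no member's window held CACGTG, which overlaps ACGTG (6.68% of all promoters), the ethylene-related GCCGCC (1.87%), or the epidermal L1-box forms TAAATGCA (1.55%) and TAAATGTA (2.95%).

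The libraries held between 12870604 and 17116359 plant counts, so 1 count was worth 0.0554 to 0.0819 CPM, the depth-scaled count unit used below, which was set with TMM factors. The first principal component carried 64.7% of the variance and separated the pretreatments. The labels do not state whether replicates were separate cultures, so p-values and errors cover the spread between these libraries, which may be technical. In whole seedlings, fewer cells of a type and less RNA per cell cannot be told apart. The spike-in RNAs were 1.51%, 1.66% and 1.98% of the counts in the ethylene libraries and 1.98%, 2.23% and 2.03% in the air libraries. The share in ethylene 3 lay just above that in air 1, so the groups overlapped. Scaling on these RNAs shifted all tested loci, whose median log2 fold change was 0.47 on that scale, against 0.02 with TMM factors. Values below use TMM factors, and each named gene's direction that changes with spike-in scaling is marked. Summed CPM of gene lists are given with TMM factors only, and their directions were not checked with spike-in scaling.

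Summed up, the 10 genes supplied less of the transcript pool after ethylene. They held 0.244%, 0.284% and 0.353% of the plant counts in the ethylene libraries, against 0.558%, 0.547% and 0.579% in the air libraries. Every ethylene library lay below every air library. Of the 9 members with enough counts to be fitted, 5 were lower after ethylene and 1 was higher at an adjusted p under 0.05 in the fit over all loci, in which 32.6% of 17887 loci passed that threshold (16.8% lower and 15.8% higher). The groups did not overlap for 6 members (5 lower, 1 higher), as they did not for 47.7% of the loci (23.8% lower, 23.9% higher). A change of 2-fold or more that passed was seen in 5 members (4 lower, 1 higher), as in 11.2% of the loci (4.61% lower, 6.58% higher). With spike-in scaling 4 members were lower and 3 higher, where 4.63% of the loci were lower and 40.0% higher. These counts describe loci picked for this contrast and are no test of it.

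**Figure D1:**
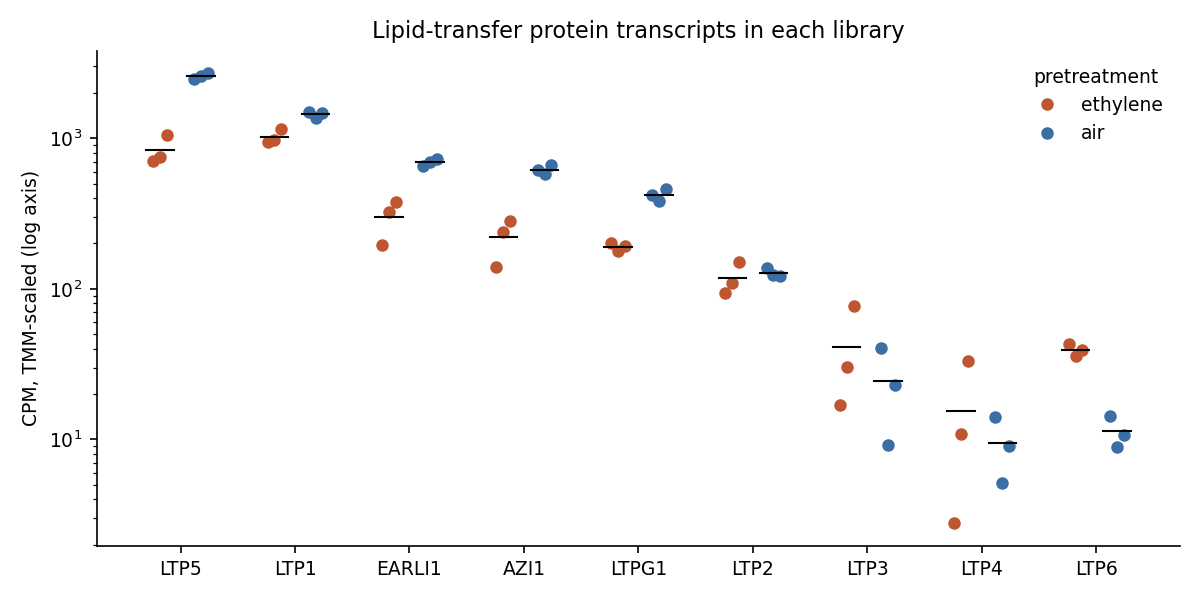
TMM-scaled CPM (log axis) of the 9 lipid-transfer genes with counts, with 3 ethylene libraries in orange and 3 air libraries in blue; the bars mark group means. LTP5, EARLI1, AZI1 and LTPG1 lie lower in all ethylene libraries, as does LTP1 on this scale but not per spike-in count, and LTP6 lies higher, while the groups overlap for LTP2, LTP3 and LTP4.

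Among the secreted members, LTP5 and LTP1 made up most of the 10 members' counts. LTP5, known for a role in pollen tube growth, had 702, 752 and 1048 CPM in the ethylene libraries, against 2490.2, 2596 and 2703 CPM in the air libraries. Its air libraries lay close together and far above all ethylene libraries, of which ethylene 3 was the highest. The log2 fold change was -1.64 ± 0.14 (SE, n = 3 each), a level 3.11-fold higher in air. LTP5 gave 28.3% to 31.3% of the members' counts in ethylene libraries and 42.4% to 45.0% in air libraries.

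LTP1, a protein of epidermal cell walls, had 942, 979 and 1147 CPM in the ethylene libraries, against 1502, 1363 and 1477 CPM in the air libraries. The groups did not overlap on this scale, and the log2 fold change was -0.50 ± 0.09, but with spike-in scaling it was -0.06 and no longer past the threshold. Per 1000 spike-in counts LTP1 had 64.2, 61.9 and 59.8 counts in the ethylene libraries and 70.6, 56.8 and 66.6 in the air libraries, so the groups overlapped. Its share of the members' counts was 34.3% to 40.4% in ethylene libraries and 23.6% to 25.5% in air libraries. By counts LTP1 was thus the largest member after ethylene and LTP5 the largest after air, in all 3 libraries of each.

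LTP2, the neighbour of LTP1, is known to be expressed in the epidermis of dark-grown hypocotyls. It had 93.2, 109 and 151 CPM in the ethylene libraries, against 138, 124 and 122 CPM in the air libraries. The groups overlapped, ethylene 3 being the highest library of all and ethylene 1 the lowest. The log2 fold change was -0.12 ± 0.15 and had the opposite sign with spike-in scaling, at 0.30. It was also 0.02 without ethylene 1, and without ethylene 3 it was -0.34 and past the threshold.

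The ratio of 2 neighbours within a library does not depend on the scaling between libraries. There were 10.11, 8.96 and 7.60 LTP1 counts per LTP2 count in the ethylene libraries, against 10.9, 11.0 and 12.1 in the air libraries. The ethylene ratios were all lower, with a difference of -0.36 in mean log2 ratio that ran between -0.46 and -0.25 when any 1 library was left out. LTP1 was therefore lower relative to LTP2 after ethylene.

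LTP6 lay the other way from LTP5. It had 42.9, 35.9 and 39.1 CPM in the ethylene libraries, against 14.3, 8.93 and 10.8 CPM in the air libraries. Every ethylene library lay above every air library, with a log2 fold change of 1.79 ± 0.17, or 3.46-fold higher. The direction was the same with spike-in scaling, at 2.24. LTP6 is the member with 2 annotated transcripts, and the second of them had 0 counts in every library.

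LTP3 and LTP4 varied more within a pretreatment than between pretreatments. LTP3 had 16.8, 30.2 and 76.6 CPM in the ethylene libraries, against 40.6, 9.18 and 22.9 CPM in the air libraries. LTP4 had 2.77, 10.8 and 33.0 CPM in the ethylene libraries, against 14.0, 5.16 and 9.07 CPM in the air libraries. Both genes were highest in ethylene 3, and in both the highest air library was air 1 and the lowest was air 2. The highest ethylene library exceeded the lowest 4.55-fold for LTP3 and 11.9-fold for LTP4, and among air libraries the spans were 4.43-fold and 2.71-fold. Within-group standard deviations of log2 CPM were 1.09 for LTP3 and 1.34 for LTP4, larger than those of 99.4% and 99.9% of tested loci.

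With that spread, the log2 fold changes of 0.76 ± 0.55 for LTP3 and 0.72 ± 0.66 for LTP4 did not pass the threshold. Without ethylene 3 they were -0.05 for LTP3 and -0.47 for LTP4. Spike-in scaling gave 1.09 for LTP3 and 1.03 for LTP4 and put both past the threshold, although their libraries still overlapped per spike-in count. That fit drew the spread of each locus almost wholly from the trend over all loci, with 192 prior degrees of freedom, against 6.10 with TMM factors and 4 residual ones. The ratio of LTP3 to LTP4 counts was 6.07, 2.79 and 2.32 in the ethylene libraries and 2.90, 1.78 and 2.53 in the air libraries, which overlapped.

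The 3 loci whose levels followed LTP4 most closely over the 6 libraries were RAB18, HAI2 and RPA32B. Likeness was the root mean square difference of log2 CPM after each gene's own mean was taken off, and RAB18 and HAI2 were picked out for their levels after these were seen. RAB18, a dehydrin gene known to be induced by abscisic acid, was nearest at 0.272, with 2.13, 5.10 and 17.8 CPM in the ethylene libraries and 7.24, 3.85 and 4.80 CPM in the air libraries. HAI2, which encodes a protein phosphatase strongly induced by abscisic acid, was next at 0.301. It had 0.323, 1.35 and 3.16 CPM in the ethylene libraries and 1.59, 0.901 and 1.14 CPM in the air libraries. RPA32B, which encodes a replication protein A subunit, followed at 0.406. LTP3 ranked 9 among all tested loci for nearness to LTP4, at 0.529, and the nearest locus to LTP3 itself was NAC007 at 0.322.

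**Figure D2:**
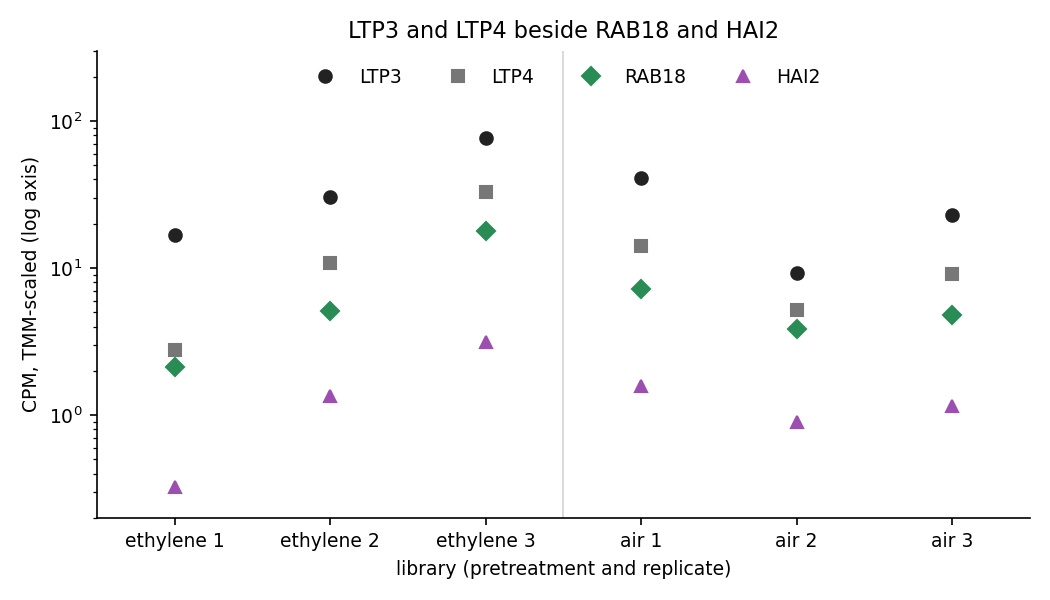
TMM-scaled CPM (log axis) of LTP3, LTP4, RAB18 and HAI2 in each of the 6 libraries, with 1 symbol per gene and a grey line between the pretreatments. All 4 genes are highest in ethylene 3, and their ethylene and air libraries overlap.

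LTPG1, the membrane-anchored member linked to wax delivery, was lower after ethylene with little spread. It had 200.3, 177 and 192 CPM in the ethylene libraries, against 417, 384 and 463 CPM in the air libraries. The groups lay well apart, with a log2 fold change of -1.15 ± 0.09, or 2.22-fold higher in air, and -0.70 with spike-in scaling. LTPG1 and LTP6 were the members whose highest ethylene library was not ethylene 3; the other 7 with counts were highest in ethylene 3 among the ethylene libraries (4 members per spike-in count).

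AZI1 and EARLI1, the proline-rich pair of chromosome 4, were lower in every ethylene library. AZI1 had 140.0, 239.5 and 280.2 CPM in the ethylene libraries, against 611, 582 and 662 CPM in the air libraries. EARLI1 had 194, 326 and 378 CPM in the ethylene libraries, against 650.1, 697 and 731 CPM in the air libraries. In both genes ethylene 1 was the lowest and ethylene 3 the highest of its group, and the air libraries were closer together. The log2 fold changes were -1.49 ± 0.20 for AZI1 and -1.21 ± 0.19 for EARLI1, and -1.08 and -0.79 with spike-in scaling. AZI1 counts per EARLI1 count were 0.721, 0.736 and 0.741 in the ethylene libraries, against 0.940, 0.834 and 0.906 in the air libraries. AZI1 was thus lower relative to EARLI1 in each ethylene library, with a difference of -0.28 in mean log2 ratio that ran between -0.33 and -0.25 when any 1 library was left out.

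The remaining loci of that run on chromosome 4 did not share this direction. The run holds 9 lipid-transfer loci, of which 8 could be tested. Of the loci that follow AZI1 and EARLI1, 4 rose in edgeR's quasi-likelihood test with Benjamini-Hochberg adjustment over all loci. Over all loci 15.8% rose in that test. AT4G12500 averaged 14.96 ± 1.07 CPM after ethylene and 4.01 ± 1.76 CPM after air (SD, n = 3 each), a log2 fold change of 1.90 ± 0.28 with an adjusted p of 0.000708. AT4G12520 averaged 34.9 ± 5.84 CPM after ethylene and 13.3 ± 5.93 CPM after air, with 1.39 ± 0.26 and an adjusted p of 0.00261. AT4G12545 rose by 1.79 ± 0.30 (adjusted p = 0.00149) and AIR1, known as an auxin-induced gene of root cultures, by 2.35 ± 0.46 (adjusted p = 0.00364) on the log2 scale of the same test.

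Between these and the falling pair stands AT4G12490, the next locus after EARLI1. It had 22.1, 47.2 and 63.5 CPM in the ethylene libraries, against 43.4, 46.5 and 36.6 CPM in the air libraries, and its log2 fold change was 0.07 ± 0.29, or 0.47 when scaled on spike-ins. As for AZI1 and EARLI1, ethylene 1 was its lowest ethylene library and ethylene 3 its highest. AT4G12510 had a log2 fold change of 1.40 ± 0.57 and overlapping groups (edgeR adjusted p = 0.0870), and AT4G12530 had at most 7 counts in a library. AT4G12490 and AT4G12500 each share 50 different stretches of 50 bases with transcripts of other loci, so their counts are less certain than those of AZI1 and EARLI1. The loci after AT4G12500 in this run were not searched for such stretches.

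**Figure D3:**
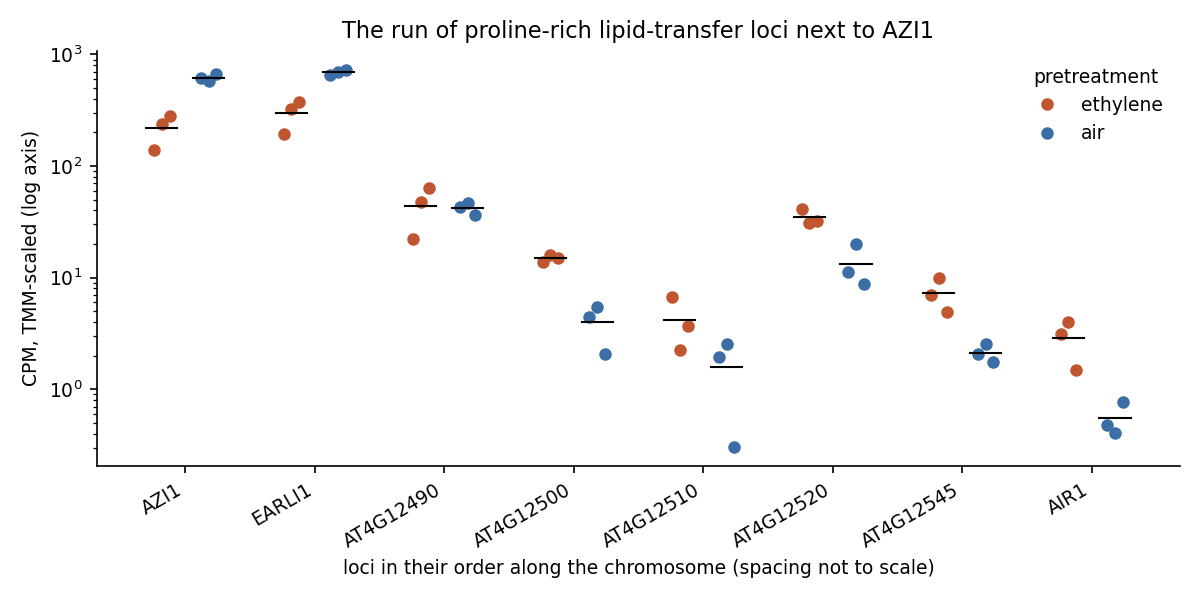
TMM-scaled CPM (log axis) of the 8 tested lipid-transfer loci of the AZI1 run, in their order along chromosome 4, with ethylene libraries in orange, air libraries in blue and bars for group means. AZI1 and EARLI1 are lower after ethylene, AT4G12490 and AT4G12510 overlap, and AT4G12500, AT4G12520, AT4G12545 and AIR1 are higher.

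DIR1, the lipid-transfer protein first linked to systemic acquired resistance, had 0 counts in all 6 libraries. A count of 0 allows up to 3 counts, or 0.166 to 0.246 CPM in these libraries, counting error only. All bases of its annotated exons are also covered by exons of AT5G48480, a glyoxalase-family locus on the opposite strand, and whether strand was used in counting is not given in the sources used here. AT5G48480 itself had 75.7, 69.2 and 75.9 CPM in the ethylene libraries and 43.3, 45.8 and 42.5 CPM in the air libraries. Of 371 protein-coding loci whose exons are wholly covered by another locus, 342 (92.2%) had 0 counts everywhere, as had 6.91% of 7247 partly covered loci and 17.4% of 19813 uncovered ones. The level of DIR1 transcript is therefore not known from these tables. In LTPG1 and EARLI1, by comparison, 2.34% and 3.44% of exon bases are covered by another locus, and in the other 7 members none.

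The DIR1-like locus AT5G48490, which lies next to DIR1, was measured. It averaged 32.7 ± 6.20 CPM after ethylene and 50.3 ± 9.90 CPM after air, with a log2 fold change of -0.62 ± 0.16 and an adjusted p of 0.0159 in edgeR's quasi-likelihood test. That call was lost without ethylene 2 (adjusted p = 0.0578), without ethylene 3 (adjusted p = 0.0548) and with spike-in scaling, at -0.14.

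Per kilobase of annotated transcript, the order of the members differed between pretreatments at its top. LTP6 and LTP3 also changed places, but did not differ beyond their SDs after either pretreatment. After ethylene LTP1 came first with 1229 ± 131 CPM per kb, then LTP5 with 852 ± 191, EARLI1 with 322 ± 102, AZI1 with 254 ± 83.4, LTPG1 with 193 ± 11.9 and LTP2 with 106 ± 26.7. Below them LTP6 had 54.1 ± 4.79, LTP3 53.6 ± 40.8 and LTP4 18.7 ± 18.8 CPM per kb. EARLI1 and AZI1, and AZI1 and LTPG1, did not differ beyond their SDs, nor did LTP6 and LTP3, or LTP3 and LTP4, while the other neighbours in this order did.

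After air LTP5 came first with 2652 ± 109 CPM per kb, then LTP1 with 1740 ± 88.6, EARLI1 with 745 ± 43.8, AZI1 with 715 ± 47.2, LTPG1 with 429 ± 40.7 and LTP2 with 115 ± 7.75. LTP3 had 31.5 ± 20.5, LTP6 15.6 ± 3.75 and LTP4 11.3 ± 5.34 CPM per kb. Only EARLI1 and AZI1, and the neighbours among the lowest 3, were within their SDs of the next gene in air. DIR1 had 0 counts and is outside both orders.

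**Figure D4:**
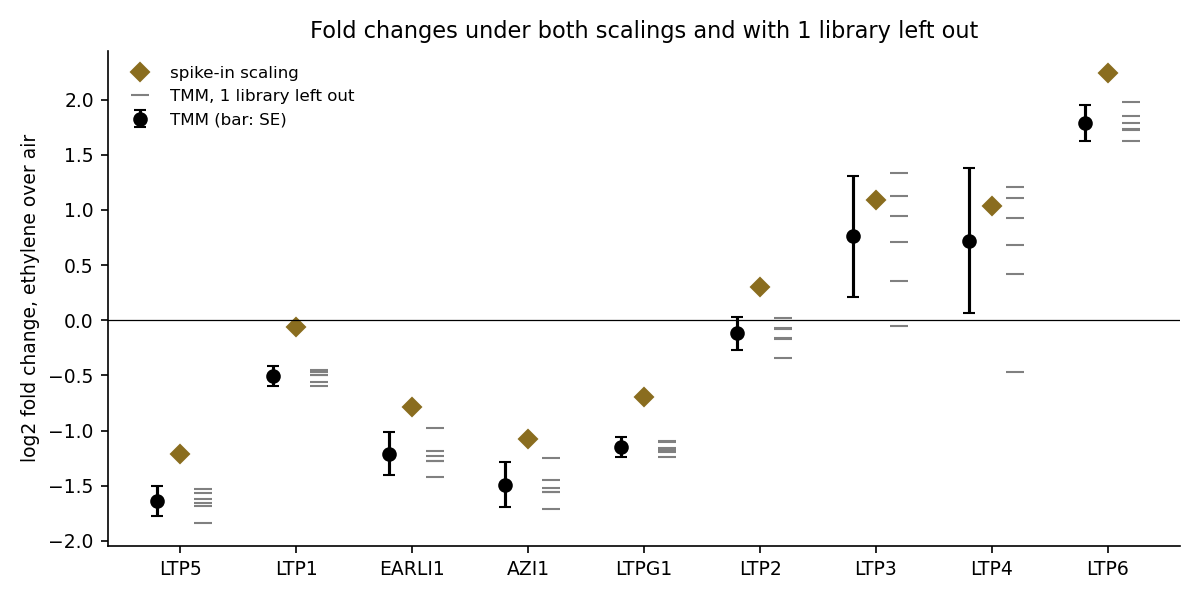
Log2 fold changes (ethylene over air) of the 9 lipid-transfer genes with counts: black circles with SE bars use TMM factors, brown diamonds use spike-in scaling, and grey ticks leave out 1 library each. LTP5, EARLI1, AZI1 and LTPG1 stay below 0 and LTP6 above 0 throughout, LTP1 reaches -0.06 with spike-in scaling, and LTP2, LTP3 and LTP4 cross 0.

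By the same measure of likeness, the 3 nearest loci were found for each member that changed 2-fold or more. AT4G21620, a glycine-rich protein locus, was nearest to LTP5 at 0.0756, before AT5G22920 and MPK14. For LTPG1 these were MYB70 at 0.0428, AT2G36320 and AT3G11110. AZI1's were DIC2, a mitochondrial dicarboxylate carrier, at 0.0687, AT1G22570 and MLO12, and EARLI1's were FRK1, a receptor kinase gene induced by the bacterial peptide flg22, at 0.0444, AT2G26440 and AT5G44568. LTP6 had no neighbour as close, with AT2G18620 at 0.141, AT4G18630 and CDC20.2. EARLI1 ranked 17 among the loci nearest to AZI1, at 0.152, so other loci followed AZI1 more closely than its own neighbour did.

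The wider family moved mostly upward, although its summed level was lower after ethylene. RefSeq describes 131 other loci as lipid-transfer proteins, of which 57 had 0 counts and 57 could be tested. In edgeR's quasi-likelihood test 25 of these rose and 10 fell, where 15.8% of all tested loci rose and 16.8% fell. The median log2 fold change of the 57 was 0.62, against 0.02 over all tested loci. With spike-in scaling 36 were higher and 5 lower, against 40.0% higher and 4.63% lower over all loci, and the medians were 1.10 and 0.47. Without ethylene 2 the calls dropped to 21, with 13 higher. Leaving out glycolipid-transfer, StAR-related and DUF784 loci, which belong to other protein folds or had 0 counts, gave the same 25 and 10 calls among 51 tested loci.

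The 2 loci of the wider family with the highest mean CPM, not corrected for length, both fell. AT2G45180 averaged 1697 ± 35.4 CPM after ethylene and 3817 ± 262 CPM after air (log2 fold change -1.17 ± 0.08, edgeR adjusted p = 1.30e-05). AT1G62510 averaged 110.1 ± 48.1 CPM after ethylene and 512 ± 91.9 CPM after air, with -2.22 ± 0.28 (edgeR adjusted p = 0.000302). LTPG2, the sister gene of LTPG1, averaged 33.8 ± 6.16 CPM after ethylene and 49.0 ± 7.96 CPM after air, with -0.54 ± 0.15 (edgeR adjusted p = 0.0212), which was lost without ethylene 2 (adjusted p = 0.0807), without ethylene 3 (adjusted p = 0.0745) and with spike-in scaling, at -0.07. The summed level of the 131 loci ran between 3004 and 3388 CPM in ethylene libraries and between 5102 and 5558 CPM in air libraries.

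The other named falls were AT1G73890 at -1.16, AT2G10940 at -0.76, AT2G44290 at -0.56, AT4G00165 at -0.50 and the locus named LTP (AT2G15050) at -0.43, all log2 fold changes. Of these only AT1G73890 remained lower past the threshold with spike-in scaling, and LTP then stood at 0.02; LTP also lost its call in 4 of the fits without 1 library. All loci that rose had a lower mean CPM than AT2G45180 and AT1G62510, again without regard to length. AT3G53980 averaged 30.7 ± 4.54 CPM after ethylene and 9.26 ± 3.69 CPM after air, with 1.72 ± 0.24 (edgeR adjusted p = 0.000585). AT3G58550 rose by 1.56, AT2G18370 by 1.40, AT4G15160 by 1.25, AT5G05960 by 1.21, XYP1 by 1.19, AT5G01870 by 1.14 and AT4G22490 by 0.99 on the log2 scale. XYP1 encodes xylogen protein, an arabinogalactan protein known to promote xylem vessel differentiation, and AT4G22490 lost its call in 5 of the fits without 1 library.

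**Figure D5:**
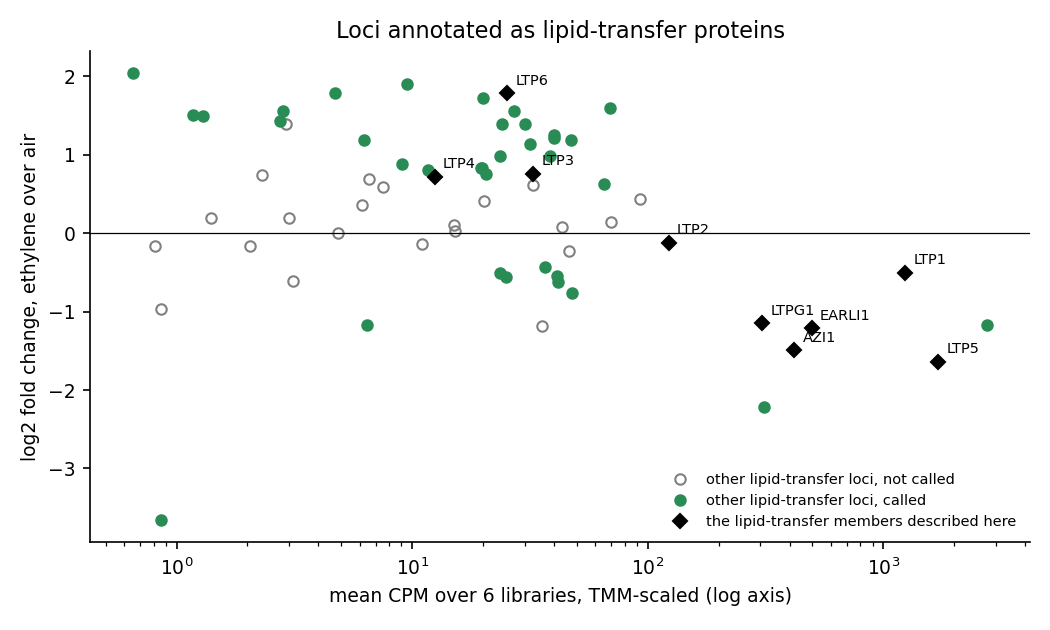
Log2 fold change (ethylene over air) against mean CPM over 6 libraries (log axis) for all tested loci annotated as lipid-transfer proteins; black diamonds are the members, filled green circles other loci past the threshold and open circles other loci not past it. LTP5, LTPG1, AZI1, EARLI1, AT2G45180 and AT1G62510 lie below 0, and LTP6 lies among the many called loci above 0.

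Genes that make and export wax and cutin, the surface lipids that LTPG1 is linked to, were more often called lower than higher with TMM factors. Scaled on spike-ins, the test called 5 lower and 4 higher, where 4.63% of all loci were lower and 40.0% higher. Of 23 listed, 18 were tested, 9 fell and 2 rose, with a median log2 fold change of -0.40, in edgeR's quasi-likelihood test. Over all loci 16.8% fell and 15.8% rose in that test. CER3, part of the alkane-forming wax enzyme, averaged 167 ± 3.95 CPM after ethylene and 370 ± 59.5 CPM after air, a log2 fold change of -1.15 ± 0.11. CER2, needed for the longest wax chains, changed by -0.93 ± 0.08 and CYP86A2, a fatty acid hydroxylase of cutin synthesis, by -0.98 ± 0.09. These 3 stayed lower past the threshold with spike-in scaling, where the median of the list was 0.05. The 2 rises were CER1, a wax gene, at 1.53 ± 0.37, and DCR, a cutin gene, at 0.93 ± 0.10. CER1 averaged 2.88 ± 0.796 CPM after ethylene and 0.983 ± 0.404 CPM after air, and DCR 112 ± 2.25 and 59.1 ± 7.02 CPM. Both stayed higher past the threshold with spike-in scaling, at 1.95 and 1.38.

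The genes of systemic resistance, the process in which DIR1 and AZI1 act, were called in both directions with TMM factors. Of 19 listed, 14 were tested, and 5 rose and 4 fell, where 15.8% of all loci rose and 16.8% fell. With spike-in scaling 7 were higher and 0 lower, on a scale where 40.0% of all loci were higher and 4.63% lower. ALD1, which makes the pipecolic acid precursor, averaged 5.53 ± 0.809 CPM after ethylene and 0.564 ± 0.223 CPM after air, and rose by 3.30 ± 0.32 on the log2 scale (edgeR adjusted p = 7.6e-05). LOX1, a lipoxygenase gene, averaged 253 ± 20.4 CPM after ethylene and 151 ± 17.4 CPM after air, with 0.75 ± 0.10, and MPK6, a kinase gene, changed by -0.43 ± 0.08, which became 0.02 with spike-in scaling. PR1 and PR2, markers of salicylic acid defence, had 0 counts in all libraries. PR5, another pathogenesis-related gene of the list, averaged 11.6 ± 3.24 CPM after ethylene and 4.93 ± 2.09 CPM after air. It rose by 1.22 ± 0.31 on the log2 scale (edgeR adjusted p = 0.0132), and by 1.63 with spike-in scaling.

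Among 17 genes of the abscisic acid, dehydration and cold response, to which LTP3 and LTP4 belong by their known induction, 15 were tested, 5 fell and 0 rose in edgeR's quasi-likelihood test, and the median change was 0.03 on the log2 scale. Over all loci 16.8% were lower and 15.8% higher. Scaled on spike-ins, 7 were higher and 2 lower, against 40.0% higher and 4.63% lower over all loci. RD26, a NAC factor gene, averaged 5.09 ± 0.568 CPM after ethylene and 14.2 ± 4.76 CPM after air, with -1.48 ± 0.24. RD22 averaged 569 ± 33.9 CPM after ethylene and 823 ± 70.0 CPM after air, with -0.53 ± 0.09, and COR413-PM1 changed by -0.45 ± 0.09. With spike-in scaling RD26 was still lower at -1.05, while RD22 stood at -0.09 and COR413-PM1 at 0.00.

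Of the 8 epidermis, 6 green leaf and 7 root markers, 2, 4 and 2 passed the threshold in edgeR's quasi-likelihood test, as did 32.6% of all loci. The 8 epidermis markers summed to between 967 and 985 CPM in ethylene libraries and between 1003 and 1219 CPM in air libraries. FDH alone had 524, 490 and 483 CPM in the ethylene libraries and 907, 778 and 986 CPM in the air libraries. The median log2 fold change of the 8 was 0.34, with 1 higher (PDF1, 1.17 ± 0.09) and 1 lower (FDH, -0.84 ± 0.09). With spike-in scaling FDH stood at -0.38 and was not past the threshold. The 6 green leaf markers summed to between 29304 and 30909 CPM in ethylene libraries and between 42917 and 46142 CPM in air libraries; 4 of them were lower, led by PSAF at -1.19 with LHCA3 at -0.82 and CAB1 at -0.65, and PSAF was the one of these still past the threshold with spike-in scaling. The 7 root markers summed to between 335 and 526 CPM in ethylene libraries and between 160 and 310 CPM in air libraries. IRT1 alone had 342, 224 and 169 CPM in the ethylene libraries and 86.9, 149 and 38.9 CPM in the air libraries. The median log2 fold change of the 7 was 0.75, and SCR stood at -0.18, not past the threshold. Of the 7 root markers CASP2 (0.85 ± 0.23) and IRT1 (1.42 ± 0.40) were higher, and both calls were lost without air 1 and without ethylene 1. None of the markers of these 3 tissues was at 0 in all libraries, and their part in the levels of the lipid-transfer genes was not tested.

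The authors' deposited table of the same comparison gives nearly the same log2 fold changes for the members, which share the libraries with the values above. It holds -1.64 for LTP5, -1.49 for AZI1, -1.21 for EARLI1, -1.15 for LTPG1, -0.50 for LTP1 and 1.79 for LTP6. For LTP2, LTP3 and LTP4 the authors' deposited table has -0.12, 0.76 and 0.72.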

How the data were processed

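Read counts per transcript, as whole numbers, were deposited by the authors for 3 ethylene and 3 air libraries, per the file headers. The authors also deposited a comparison with log2 fold changes and adjusted p-values. The 6 per-sample columns of that table, an expression signal, are the deposited counts divided by 1 factor each (within 1% in all transcripts of 10 or more counts), and served only to check names: 4 columns match the library they are named for, while those named for air 1 and air 3 match air 3 and air 1. Replicate numbers here follow the labels of the count tables. An exchange within air leaves the comparison of ethylene with air by group alone as it is. The replicate block and the correlations of same-numbered libraries depend on these numbers. The aligner, counting program, strand setting and genome build are not given in the sources used here. Members, gene lists and tests were chosen with earlier results of these data known, so members' fold changes are a description.

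Counts of 54013 transcript identifiers were summed to 32833 loci, and the 92 spike-in RNAs were kept out of library sizes. RefSeq TAIR10.1 gave names for 32548 loci and all sequences, matched by locus. The same annotation lists 53219 of the 53688 numbered transcript identifiers, all members included. edgeR 4.0.16 (R 4.3.3) was used for the quasi-likelihood test, with TMM factors, filterByExpr (minimum count 10, minimum total 15), the group alone as design and Benjamini-Hochberg adjustment over 17887 loci. The threshold was an adjusted p under 0.05. Standard errors are the fold change over the root of the F statistic. The script was tested on simulated data. CPM is TMM-scaled, given as mean ± SD over 3 libraries. Log2 CPM for likeness used a prior count of 2.

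All members were named. Of the other lipid-transfer loci, up to 10 rises and 10 falls were named, largest first, among loci past the threshold with groups apart and a mean of at least 5 CPM, together with the loci of the AZI1 run. From each further list up to 3 loci past the threshold with the smallest p and the most abundant one were eligible. CER1, DCR, PR1, PR2 and PR5 were named outside this rule. No replicate pair agreed within sampling noise (chi-square per degree of freedom 5.34 to 29.0). The alternatives were DESeq2 1.42.0, upper-quartile factors, spike-in totals, 2 other filters, the top transcript of each locus, a replicate block, and each library left out.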

Additional observations from a re-analysis of the deposited data

How the results depend on the processing

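Among the members, LTP5, LTPG1, AZI1, EARLI1 and LTP6 kept their direction and their side of the threshold under all 13 alternatives. Their log2 fold changes ran from -1.84 to -1.21, -1.24 to -0.70, -1.71 to -1.08, -1.42 to -0.79 and 1.63 to 2.24. LTP1 lost its call with spike-in scaling only. Spike-in scaling also gave 3 members called higher and 5 other lipid-transfer loci called lower, among 7160 loci higher and 829 lower in all, and reversed LTP2 to 0.30. Leaving out 1 library, LTP2 ran from -0.34 (without ethylene 3) to 0.022 (without ethylene 1), LTP3 from -0.052 (without ethylene 3) to 1.34 and LTP4 from -0.47 (without ethylene 3) to 1.21. The same fits gave 4361 to 5903 loci called, 6 to 7 members (5 to 6 lower, and 1 higher each time), 21 to 33 other lipid-transfer loci (13 to 23 higher and 7 to 10 lower), and 21 to 24 loci of the 3 companion lists. The ratio of LTP3 to LTP4 then differed by 0.11 to 0.81. With replicate number as a block, 5574 loci were called, with 6 members and 35 other lipid-transfer loci, and no member's call changed. Same-numbered libraries deviated together with correlations of 0.02, -0.06 and 0.12, so the numbers are not taken to pair them, and not every library correlated best with its own number. If air 1 and air 3 are exchanged, ethylene 1 pairs at -0.13 and ethylene 3 at -0.07. The block was fitted with the labelled numbers only. With DESeq2 5557 of 18966 loci with an adjusted p were called (29.3%). The cause of the reversals was not tested. Depth limits AT4G12530; DIR1 is limited by the locus that covers its exons.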

Other observations

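A second run of lipid-transfer loci on chromosome 4, from AT4G22460 to AT4G22610, was picked out after its values were seen. Of its 9 loci, 8 were tested and 6 rose in edgeR's quasi-likelihood test, though the groups were apart in only 3 of these 6; over all loci 15.8% rose. Of the 6 rises, 5 lost the call when 1 library was left out, all but AT4G22505, and AT4G22485 and AT4G22490 were not called by DESeq2 (adjusted p = 0.146 and 0.0998). AT4G22505 had 60.5, 117 and 134 CPM in the ethylene libraries, against 61.2, 20.8 and 20.5 CPM in the air libraries, and rose by 1.60 ± 0.41 on the log2 scale (edgeR adjusted p = 0.0140). AT4G22485 had 40.4, 66.9 and 90.0 CPM in the ethylene libraries, against 49.5, 13.8 and 23.2 CPM in the air libraries. In both loci air 1 was the highest air library and lay within the ethylene range. AT4G22470 ran the other way, with 5.42, 30.9 and 28.8 CPM in the ethylene libraries, against 46.8, 46.5 and 55.3 CPM in the air libraries, a log2 fold change of -1.18 ± 0.44 that missed the threshold (edgeR adjusted p = 0.0635). The annotation places exons of other loci over 93.5% of the exon bases of AT4G22485, 92.3% of AT4G22505 and 87.7% of AT4G22470. How reads in these covered bases were assigned is not given in the sources used here, so these counts are uncertain.

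The largest fall of the wider family was in a transcript with few counts. AT1G18280 had 1, 4 and 1 counts in the ethylene libraries, against 18, 21 and 24 counts in the air libraries, and its log2 fold change was -3.66 ± 0.56 (edgeR adjusted p = 0.000960).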
